A study of Saccharomyces cerevisiae with 19 samples.

Results

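Budding yeast of a wild type and of a strain labelled as a Sch9 mutant were compared in early stationary phase, at 36, 48 and 60 h of culture. The comparison rests on 6 of the 19 arrays of the series, the wild type and the labelled mutant at each of these 3 times, chosen by strain and hour and paired by hour. The other arrays, 7 of the wild type at earlier and later times and 6 of the labelled mutant, entered the normalization, and those at 12, 24, 72, 84, 96 and 108 h also entered the comparisons between windows. Cells came from frozen stocks, were grown overnight to saturation in SDC (synthetic complete medium), diluted, and shaken at 30 °C, and total RNA was read on Affymetrix Yeast 2.0 arrays, in which short probes in a set report the RNA of a gene. The labels give no strain background, mating type, marker or clone number for either strain and no treatment. Each strain and time is 1 array and nothing marks the arrays as separate cultures, so p-values measure the spread of the strain difference over the 3 hours, not over cultures. In bulk RNA, fewer cells expressing a gene and less RNA per cell cannot be told apart.

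Sch9 is a protein kinase that acts downstream of the TOR complex, the sensor of nitrogen and carbon supply. In growing yeast it promotes the synthesis of ribosomes and holds back the stress programme that the kinase Rim15 and the transcription factors Msn2, Msn4 and Gis1 drive when glucose runs out. Loss of SCH9 slows growth and lengthens the survival of cells that no longer divide. Between the exhaustion of glucose and late stationary phase, wild-type cells respire ethanol, store glycogen and trehalose, and thicken their walls.

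Signals below are log2 values after quantile normalization over the 5449 genes tested, and differences are the labelled mutant minus the wild type. A gene was called higher or lower where limma, with the hour as a block, gave it an adjusted p under 0.05 (Benjamini-Hochberg, all 5449 genes). SCH9 itself (YHR205W) had signals of 11.26, 11.13 and 10.88 at 36, 48 and 60 h in the wild type and 10.07, 10.32 and 10.36 in the labelled mutant. All 3 signals of the labelled mutant lay below those of the wild type, and the gap narrowed from -1.19 to -0.52 between 36 and 60 h (mean -0.84, SE 0.14, adjusted p = 0.00238). The sources used here do not say whether the mutation removed the stretch that these probes read, and the signal does not check the label. URA3 (YEL021W), a uracil synthesis gene often used to replace a deleted gene, read 7.70, 7.63 and 8.03 in the wild type and 9.61, 9.56 and 9.41 in the labelled mutant. The strains did not overlap at this gene (difference 1.74, SE 0.13, adjusted p = 0.000166).

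Of the 5449 genes 1608 were higher in the labelled mutant, which is 29.5% of all genes, and 1395 were lower, which is 25.6%, so 55.1% were called in all. Groups of 3 that do not overlap were common, too: in 60.6% of genes every signal of the labelled mutant lay on one side of every wild-type signal. Sizes were mostly modest. The median size of a called difference was 0.62, 536 called genes differed at least 2-fold (216 higher, 320 lower) and 61 at least 4-fold (25 higher, 36 lower). Without the 48 h pair the count fell to 946 higher and 917 lower. Each fit without an hour estimated the variance anew from fewer arrays, so such counts also depend on that estimate. Centring each array on its median in place of quantile normalization gave 1256 higher and 1958 lower, so the share of calls that were higher moved from 53.5% to 39.1%. The deposited values of the brightest 10% of genes had a median difference of -0.68, which quantile normalization took to 0.01, and the counts of many gene lists therefore depend on the scale. Below, a list's counts in the deposited values follow its own where they lead elsewhere, and shares are to be read against the 29.5% higher and 25.6% lower over all genes.

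The difference had 1 sign at all 3 hours in 4019 genes (73.8%), and its SD over the hours had a median of 0.17. Across genes, the difference at 36 h correlated with that at 48 h at a Pearson r of 0.91 and with that at 60 h at 0.81, values over genes, which are not independent replicates and share their 2 strains. The median size of a gene's change from 36 to 48 h was 0.14 in the wild type and 0.11 in the labelled mutant, and from 48 to 60 h it was 0.20 and 0.10. The larger wild-type change thus involved the wild-type array at 60 h, which also stood apart in its control probe sets, and the part of that array's quality in it was not tested. From 36 to 60 h 51 genes of the wild type and 28 of the labelled mutant changed at least 2-fold.

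The labelled phase was set against marker genes. Over 10 markers of stationary and respiring yeast (HSP12, HSP26, CTT1, SPI1, YGP1, SPG4, ICL1, ACS1, ADH2 and HXT5) wild-type arrays had mean signals of 12.60 to 12.68 and arrays of the labelled mutant 12.84 to 13.06, and the median marker stood at percentile 97.2 of all genes. Of these 10, 3 were higher in the labelled mutant (HXT5, ADH2 and SPG4) and 1 was lower (SPI1); SPG4 lay at -0.02 in the deposited values and at -0.17 with median centring. The 8 markers of growth on glucose had means of at most 10.32 in the wild type and of 9.52 to 9.71 in the labelled mutant, without overlap, with 2 higher and 4 lower. Mating type alpha genes had means of 10.72 to 11.28 and 9.69 to 10.20, against 8.17 to 8.32 and 8.31 to 8.41 for the 7 mating type a genes.

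Signs of RNA quality differed between the strains in the same arrays. In the deposited log2 signals 18S ribosomal RNA, at its 3' probe set, read 8.70, 8.62 and 10.54 in the wild type and 7.14, 6.97 and 7.68 in the labelled mutant, and that for 5.8S read 12.03, 12.20 and 12.91 against 8.84, 8.68 and 8.99. The 3' probe set for 25S went the other way, at 10.05, 9.99 and 10.35 against 11.89, 11.77 and 12.02. Probe sets for 25S were split, however, with a mean strain difference of -1.19 at the 5' set and 0.30 at the middle set. Over 10 control pairs the log2 signal of the 3' probe set minus that of the 5' one, which grows as messages lose their 5' ends, averaged 0.87, 0.86 and 1.09 in the wild type and 0.79, 0.76 and 0.86 in the labelled mutant. Single pairs were split between the strains, so this mean does not hold for each pair. The pairs are not all of separate genes, since ACT1, SPT15 and SRB4 are each read by more than a single pair. For WBP1 the mean strain difference was -0.07 at the 3' set and 0.91 at the 5' set. For SRB4 it was 0.63 at the 3' set and 0.31 at the 5' set, and 0.48 and 0.41 in its other pair. The wild-type array at 60 h thus stood apart by its 18S signal and its score, and its deposited median over genes was 9.54, against 9.95 to 9.98 in the other 5 arrays; without the 60 h pair 1574 genes were higher and 1490 lower. Of 47 reporter probe sets, 45 had all 3 deposited signals of the labelled mutant below every wild-type signal, and none had all above. Their median deposited difference was -0.36. The part of these signals in the gene differences was not tested.

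The genes furthest above the wild type included genes of stress, of membrane transport and of iron. YDL218W, whose function is not characterized, read 7.45, 7.49 and 7.71 in the wild type and 12.98, 12.76 and 12.61 in the labelled mutant, a difference of 5.23 (SE 0.14, adjusted p = 1.39e-05). PDC6 (YGR087C), a minor isoform of pyruvate decarboxylase, went from signals of 8.79, 8.82 and 9.08 to 13.06, 12.81 and 12.75 (difference 3.98, SE 0.13). PMA2 (YPL036W), the little-used isoform of the plasma membrane proton pump, read 8.54, 8.62 and 8.83 against 12.71, 12.21 and 11.94 (difference 3.63, SE 0.19). In each of these genes the strains were separated by more than 3 log2 units at every hour.

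GRE1 (YPL223C) and SIP18 (YMR175W) encode hydrophilins, small proteins made on desiccation and osmotic stress. GRE1 stood at 10.09, 10.19 and 10.60 in the wild type and at 13.96, 13.90 and 13.96 in the labelled mutant (difference 3.65), and SIP18 at 10.52, 10.34 and 10.80 against 13.82, 13.83 and 13.79 (difference 3.26). HBT1 (YDL223C), which acts in the shaping of mating projections, was higher by 3.43, SPS100 (YHR139C), a protein of the spore wall, by 3.04, and RTN2 (YDL204W), a reticulon that curves the endoplasmic reticulum, by 2.32. VBA3 (YCL069W), a vacuolar transporter of basic amino acids, read 6.72, 6.57 and 6.67 against 9.84, 9.53 and 9.81, but its probe set also matches other genes, so the gene behind it is uncertain. TIS11 (3.41), FTR1 (2.41), FIT2 (2.39) and ARN2 (2.38) of the iron regulon and ERG5 (2.42) of ergosterol synthesis complete the 14 largest increases. The adjusted p of these 14 genes, the ones with the largest differences whose strains did not overlap, ran from 1.39e-05 for YDL218W to 0.000139 for RTN2.

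**Figure D1:**
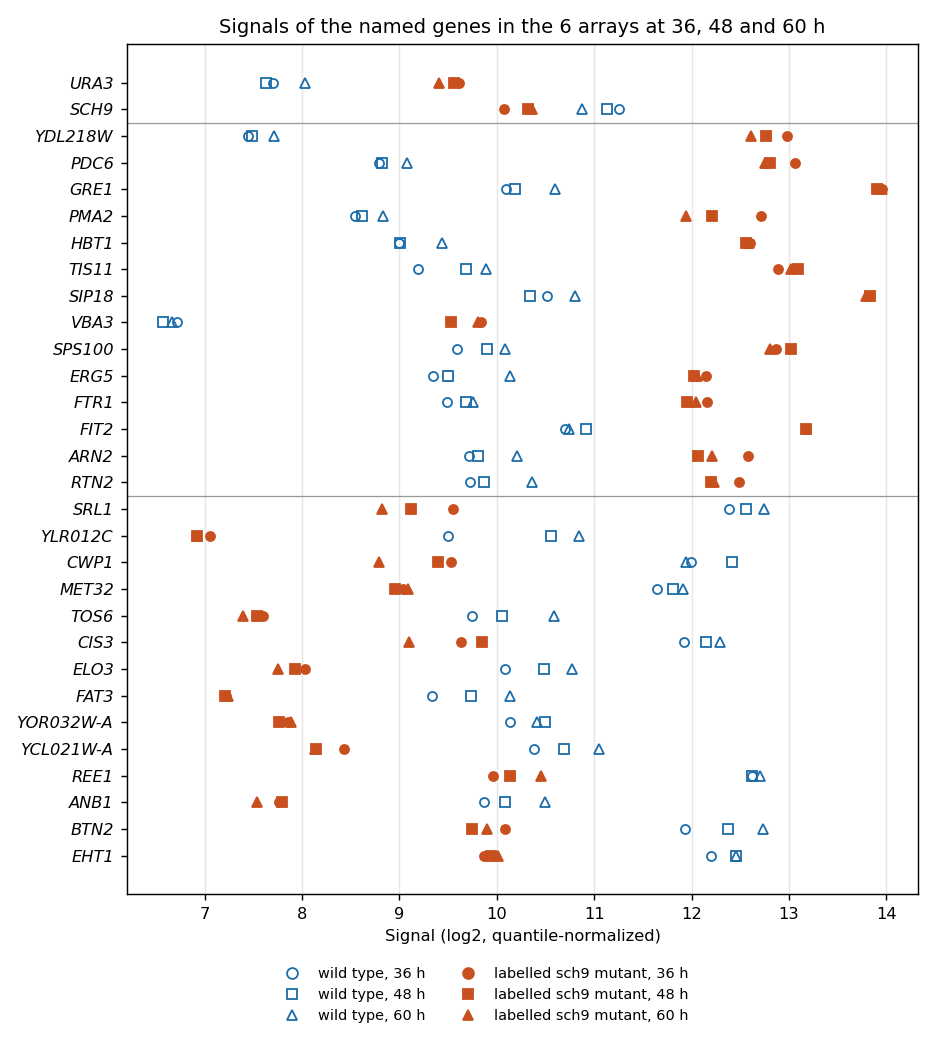
Signals (log2, quantile-normalized, x axis) of URA3, SCH9 and the 28 genes with the largest differences between strains that do not overlap (y axis), in the 3 wild-type arrays (open blue) and the 3 arrays of the labelled mutant (filled orange) at 36 h (circles), 48 h (squares) and 60 h (triangles). In every row the symbols of the strains lie apart, most widely for YDL218W, with 7.45 to 7.71 in the wild type and 12.61 to 12.98 in the labelled mutant.

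The largest decreases included 4 genes of cell wall proteins. SRL1 (YOR247W), a mannoprotein of the wall, read 12.38, 12.56 and 12.74 in the wild type and 9.55, 9.12 and 8.82 in the labelled mutant (difference -3.39, SE 0.19, adjusted p = 8.2e-05). CWP1 (YKL096W), a mannoprotein of birth scars, read 11.99, 12.42 and 11.94 against 9.53, 9.40 and 8.79 (difference -2.88). The wall proteins TOS6 (YNL300W, -2.62) and CIS3 (YJL158C, -2.59) were lower as well. In all 4 of these wall genes the gap was wider at 60 h than at 36 h, going from -2.83 to -3.91 in SRL1, from -2.16 to -3.19 in TOS6, from -2.46 to -3.14 in CWP1 and from -2.29 to -3.19 in CIS3.

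Genes of lipid metabolism were also among the decreases. ELO3 (YLR372W), an elongase that makes the very long fatty acids of sphingolipids, read 10.08, 10.48 and 10.77 against 8.03, 7.93 and 7.75 (difference -2.54). FAT3 (YKL187C), needed for fatty acid uptake, differed by -2.51 and EHT1 (YBR177C), which makes ethyl esters of medium-chain fatty acids, by -2.44. MET32 (YDR253C), a zinc finger activator of sulphur genes, read 11.65, 11.81 and 11.91 against 9.04, 8.96 and 9.09 (difference -2.77). BTN2 (YGR142W), a chaperone that sorts misfolded proteins, was at -2.44, REE1 (YJL217W), which acts on the expression of an enolase gene, at -2.46 and ANB1 (YJR047C), the hypoxic isoform of translation factor eIF5A, at -2.45. The other 3 of the 14 have no characterized function: YLR012C (-3.33), YOR032W-A (-2.51) and YCL021W-A (-2.47). YLR012C went in the wild type from 9.50 at 36 h to 10.84 at 60 h while it stayed between 6.92 and 7.06 in the labelled mutant. The largest adjusted p of the 14 genes was 0.00017, that of YLR012C.

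The iron regulon comprises the genes that Aft1 turns on when iron is short. Of 30 members 23 were higher (76.7%, against 29.5% of all genes), 3 were lower and 4 did not pass, and the median member differed by 0.72, against 0.03 over all genes. The deposited values gave 17 higher and 3 lower (median 0.77), and median centring 16 and 5 (median 0.62). Without the 48 h pair 19 were higher and 1 lower. Reductive uptake at the plasma membrane was represented by FET3, the copper oxidase, whose signals were 10.47, 10.99 and 11.23 in the wild type and 13.13, 12.93 and 12.86 in the labelled mutant (difference 2.08), and by its partner permease FTR1, at 9.49, 9.68 and 9.76 against 12.16, 11.95 and 12.05. CCC2 (1.44) and ATX1 (0.75), which deliver copper to Fet3, were higher too. Transporters of siderophores, the iron carriers that microbes secrete, were all higher: SIT1 by 2.20, ARN2 by 2.38, ARN1 by 1.71 and ENB1 by 1.51.

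Wall mannoproteins that hold siderophores were split: FIT2 read 10.70, 10.92 and 10.74 against 13.17, 13.18 and 13.18, and FIT3 differed by 2.28, while FIT1, at 0.10, did not pass (adjusted p = 0.478). TIS11, which binds messages of iron-using proteins and speeds their decay, read 9.19, 9.68 and 9.89 in the wild type and 12.89, 13.09 and 13.02 in the labelled mutant (difference 3.41, adjusted p = 2.25e-05). ISU2, a scaffold for iron-sulphur clusters, was 1.79 higher, while its paralog ISU1, at -0.24, did not pass (adjusted p = 0.0817). The metalloreductases were mixed: FRE5 (1.56), FRE6 (0.69), FRE2 (0.47) and FRE1 (0.43) were higher, and FRE3 (-0.45) and FRE4 (-0.37) lower. The third lower member was BNA2 (-0.70), an enzyme of NAD synthesis from tryptophan. The vacuolar exporters FTH1 (0.50) and FET5 (0.49), the heme oxygenase HMX1 (0.94), LSO1 (1.18), the mitochondrial carrier MRS4 (0.42) and AKR1 (0.48) were higher, and SMF3 (-0.19) and VHT1 (0.23) did not pass. COT1, a vacuolar zinc and cobalt transporter, was called at 0.39 but lay at 0.01 in the deposited values and at -0.14 with median centring; the direction of AKR1 and FTH1 also turned after median centring, to -0.06 and -0.14.

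**Figure D2:**
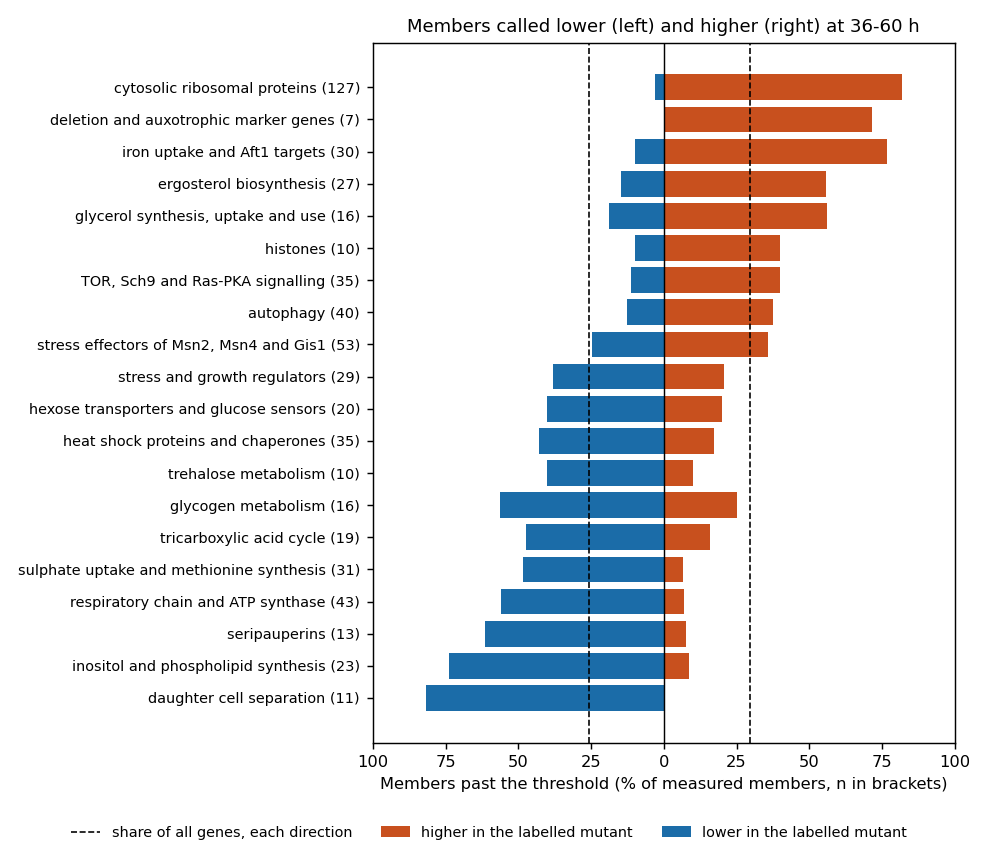
Share of the measured members of 20 gene lists (%, x axis; number of members in brackets) called lower (blue, to the left) and higher (orange, to the right) in the labelled mutant at 36 to 60 h. The dashed lines mark the shares over all genes, 25.6% lower and 29.5% higher; 104 of 127 cytosolic ribosomal protein genes and 23 of 30 iron genes lie to the right, and 9 of 11 daughter separation genes to the left.

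Ergosterol is the main sterol of yeast membranes. Of 27 genes of its synthesis 15 were higher (55.6%, against 29.5% of all genes) and 4 lower, with a median of 0.44. The deposited values gave 11 higher and 3 lower (median 0.20), and median centring 7 and 6 (median 0.05). ERG5, the C-22 desaturase, read 9.35, 9.50 and 10.14 in the wild type and 12.15, 12.02 and 12.06 in the labelled mutant (difference 2.42). ERG25, the C-4 methyl oxidase, differed by 2.18 and ERG3, the C-5 desaturase, by 1.47. Lower members were ERG4 (-0.98), the last enzyme of the pathway, the sterol transcription factor ECM22 (-0.75) and MVD1 (-0.56), an enzyme of the mevalonate steps. The list's median shrank within the window, from 0.56 at 36 h to 0.18 at 60 h, while the wild-type signal of ERG3 went from 10.48 to 11.61 and that of ERG25 from 10.34 to 11.10.

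Phospholipid synthesis went the other way. Of 23 inositol and phospholipid genes 17 were lower (73.9%, against 25.6% of all genes) and 2 higher, with a median of -0.71 that lay between -0.70 and -0.85 under the other 3 scalings. INO1, which makes inositol phosphate from glucose phosphate, read 12.91, 13.07 and 13.11 against 11.26, 10.80 and 10.57 (difference -2.15, SE 0.17, adjusted p = 0.000174). PIS1, which joins inositol to the lipid, differed by -1.99 and HNM1, the choline transporter, by -1.52. The higher members were PCT1 (0.79), an enzyme of the salvage route from choline, and INM1 (0.78), an inositol phosphatase.

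Daughter cell separation genes, which act on the septum after division, had lower signals in the labelled mutant. Of 11 measured members none was higher, 9 were lower (81.8%, against 25.6% of all genes) and 2 did not pass, and the median was -1.03, between -0.98 and -1.14 under the other scalings. The wall glucanases DSE2 and DSE4 read 9.53, 9.75 and 10.08 against 7.59, 7.41 and 7.28, and 9.14, 9.33 and 9.74 against 7.33, 7.21 and 7.23. CTS1, the chitinase, differed by -1.72. The seripauperins, small wall-related proteins of near-identical sequence, had 8 of 13 members lower (61.5%, against 25.6% of all genes) and 1 higher. Their median was -0.62, but 11 of the 13 were read by probe sets that match several genes and are uncertain.

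Most cytosolic ribosomal protein genes were higher. Of 127 members 104 were higher (81.9%, against 29.5% of all genes) and 4 lower, with a median of 0.67. The size of this excess depended on the scaling. Cyclic loess gave 105 higher and 4 lower (median 0.67), and the deposited values 43 and 15 (median 0.16). After median centring 34 were higher and 26 lower (median 0.01). RPL27B of the large subunit read 9.89, 10.01 and 10.41 in the wild type and 11.68, 11.75 and 11.82 in the labelled mutant, and was higher by 1.64; RPS11A (1.54) and RPL19A (1.50) followed. The lower members were led by RPS9A (-1.34), RPS22B (-1.30) and RPS27A (-0.77). RPS9A went in the labelled mutant from 8.80 at 36 h to 9.76 at 60 h. Of the 127 members 24 were read by probe sets shared between genes, as is common for these duplicated genes. Of the factors that assemble ribosomes 30 of 93 were higher (32.3%) and 19 lower (20.4%), shares near those over all genes, and 14 and 10 without the 48 h pair; NSR1, a nucleolar protein, was higher by 1.22, and NOP53 lower by -1.28.

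The respiratory list held more lower than higher members. Of 43 respiratory chain and ATP synthase genes 24 were lower (55.8%, against 25.6% of all genes) and 3 higher, with a median of -0.35, and the deposited values gave 39 lower and a median of -1.08. CYC7, the cytochrome c isoform of low oxygen, read 12.95, 13.05 and 13.00 against 10.58, 10.74 and 10.62 (difference -2.35), and CYC1, the main isoform, 12.38, 12.25 and 11.83 against 10.60, 10.91 and 11.08 (difference -1.29). NDI1, the internal NADH dehydrogenase, differed by -1.08. The external NADH dehydrogenase NDE2 was higher by 0.99, and CYB2, lactate dehydrogenase, by 0.29. CYB2 did not pass with cyclic loess (0.13), after median centring (0.29) or when any 1 of the hours was left out. The gap of CYC1 narrowed with each hour and that of CYC7 did not.

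In the tricarboxylic acid cycle 9 of 19 genes were lower (47.4%, against 25.6% of all genes) and 3 higher, with a median of -0.29. The deposited values gave 16 lower and 1 higher (median -0.72), and without the 48 h pair 5 were lower. KGD2 (-0.95) and SDH1 (-0.95), subunits of ketoglutarate and succinate dehydrogenase, and PYC1 (-0.87), a pyruvate carboxylase, were lowest. PYC2, the second pyruvate carboxylase, was higher by 0.51, and LSC2, a subunit of succinyl-CoA ligase, by 0.68. Among genes of gluconeogenesis and the glyoxylate cycle 9 of 23 were lower (39.1%) and 2 higher, with a median of 0.01 that turned to -0.66 in the deposited values, where 17 were lower and none higher. The lower members were led by the acetate transporter ADY2, at 11.84, 12.11 and 11.99 against 10.26, 9.43 and 9.43, and by the carnitine carrier CRC1 (-1.25).

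Glycogen and trehalose are the cell's stores of glucose. Of 16 glycogen genes 9 were lower (56.2%, against 25.6% of all genes) and 4 higher, with a median of -0.41. The deposited values gave 11 lower and 3 higher (median -0.80), and without the 48 h pair the lower count was 4. The synthases GSY1, at 11.27, 12.01 and 12.16 against 10.07, 9.69 and 10.01, and GSY2 (-0.84) were both lower, as were the branching enzyme GLC3 (-0.39), the primer GLG2 (-0.43), the phosphorylase GPH1 (-0.54) and the phosphatase subunits GIP2 (-1.22) and GAC1 (-0.39). The cyclin PCL10, which directs a kinase to glycogen synthase, was lower by -1.01 and PCL8 higher by 0.57, and the phosphatase subunits PIG1 (0.66) and PIG2 (0.78) were higher. The debranching enzyme GDB1 (-0.27), SGA1 (-0.45) and GLG1 (0.28) did not pass.

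Of 10 trehalose genes 4 were lower (40.0%, against 25.6% of all genes) and 1 higher, with a median of -0.30 that was -0.63 in the deposited values. Without the 48 h pair 2 were lower. UGP1, which makes the UDP-glucose that trehalose and glycogen share, read 12.73, 12.86 and 12.95 against 12.05, 11.58 and 11.65 (difference -1.09). TPS1 (-0.24), TPS2 (-0.03), the trehalases NTH1 (0.11), NTH2 (-0.39) and ATH1 (-0.27) did not pass. The regulatory subunits were split, TSL1 at -0.41 and TPS3 at 0.57, and of the phosphoglucomutases PGM1 (-0.57) and PGM2 (-0.33) were lower.

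Glycerol is a polyol that guards yeast against osmotic stress. In a list of 16 genes written for its synthesis, uptake and use 9 were higher (56.2%, against 29.5% of all genes) and 3 lower. The median was 0.48, and the deposited values gave 4 higher and 3 lower with a median of 0.15. These counts include RSB1 and ARA1, which are not glycerol genes. The phosphatases that complete glycerol synthesis, GPP1 and GPP2, led: GPP1 read 10.28, 10.64 and 11.02 against 12.10, 13.20 and 12.67 (difference 2.01, SE 0.18) and GPP2 10.54, 10.82 and 10.99 against 11.52, 12.77 and 11.98 (difference 1.31). GPD1, the stress isoform of glycerol phosphate dehydrogenase, was higher by 0.96 but did not pass in the deposited values (0.38) or after median centring (0.22), whereas GPD2, the isoform of low oxygen, was lower by -0.87. Breakdown genes were higher for DAK1 (1.12), GCY1 (0.81) and GUT2 (0.62), and GUT1 (0.09) did not pass; GUT2 lay at -0.01 after median centring. The uptake transporter STL1 was higher by 0.87, the channel FPS1 (-0.26) did not pass, and GUP1 (0.33) and GUP2 (-0.69) went opposite ways. DAK2 was the least steady member: it went in the labelled mutant from 7.56 at 36 h to 10.29 at 60 h, and its mean of -0.24 had an SE of 0.35. Of the members outside glycerol metabolism RSB1, a lipid transporter of the plasma membrane, was lower by -1.74, the lowest value of the list, and ARA1 (0.83) higher.

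Glucose uptake and fermentation genes differed by isoform. Of 20 hexose transporter and sensor genes 8 were lower (40.0%, against 25.6% of all genes) and 4 higher, with a median of -0.22 that was -0.47 in the deposited values. HXT3, a low-affinity transporter, read 12.18, 12.28 and 12.50 against 9.72, 10.12 and 9.98 (difference -2.38), and HXT1 (-1.53) and HXT4 (-1.07) were lower as well. HXT5, a transporter of non-growing cells, read 12.35, 12.30 and 12.13 against 13.30, 13.29 and 13.31 (difference 1.04). In glycolysis and fermentation 9 of 28 genes were higher (32.1%) and 6 lower, with a median of 0.09 that turned to -0.69 in the deposited values. Beside PDC6, ADH2, which oxidizes ethanol, was higher by 1.03, and GPM2, a phosphoglycerate mutase paralog, by 0.98, while PFK27, a regulator of glycolysis, ADH4 and ADH3 were lower by -1.45, -1.21 and -0.76. In the deposited values 20 of the 28 were lower and 5 higher.

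Of 31 genes of sulphate uptake and methionine synthesis 15 were lower (48.4%, against 25.6% of all genes) and 2 higher, with a median of -0.30. SAM2, a synthase of S-adenosylmethionine, read 12.82, 12.87 and 12.92 against 10.67, 10.72 and 10.71 (difference -2.17), and CYS3, which makes cysteine, 11.26, 11.86 and 11.89 against 9.64, 9.62 and 9.55 (difference -2.07). STR2 was higher by 0.50 and CYS4 by 0.45; CYS4 lay at -0.07 in the deposited values and at -0.22 with median centring. Without the 48 h pair 10 members were lower.

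Genes that Msn2, Msn4 and Gis1 drive were called in both directions. Of 53 stress effectors 19 were higher (35.8%, against 29.5% of all genes) and 13 lower (24.5%, against 25.6%), with a median of 0.21. The deposited values gave 12 higher and 30 lower (median -0.60), and median centring 12 and 34 (median -0.76). With the 48 h pair left out 16 were higher and 4 lower. GRE1, SIP18 and RTN2 stood at the top, and PHM7 (-1.07), RGI1 (-0.74) and SPG5 (-0.64) at the bottom. HSP12, the most used marker of this programme, read 13.53, 13.55 and 13.55 in the wild type and 13.87, 13.76 and 13.73 in the labelled mutant and did not pass (difference 0.24, adjusted p = 0.0722). CTT1, the cytosolic catalase, read 10.77, 10.96 and 11.07 against 11.39, 10.66 and 10.42 (difference -0.11, adjusted p = 0.689), so the strains overlapped and its order turned after 36 h.

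Of 29 transcription regulators and kinases of stress and growth 11 were lower (37.9%, against 25.6% of all genes) and 6 higher, with a median of -0.23. In the deposited values 12 were lower and 3 higher. RIM15, the kinase that Sch9 holds back, read 8.91, 8.68 and 8.97 in the wild type and 10.51, 10.37 and 10.45 in the labelled mutant (difference 1.59, SE 0.10, adjusted p = 0.000107). CRF1, a corepressor of ribosomal protein genes, was higher by 1.93 and MIG1, the glucose repressor, by 1.19. MSN4 read 12.46, 12.92 and 12.70 against 11.56, 11.73 and 11.10 (difference -1.23), and USV1 (-1.23) and SIP4 (-1.13), factors of stress and of growth without glucose, were lower too.

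Heat shock proteins and chaperones had 15 of 35 members lower (42.9%, against 25.6% of all genes) and 6 higher, with a median of -0.12. Deposited values put 26 lower and 2 higher (median -0.81), and without the 48 h pair 6 were lower. SSA3, an Hsp70 of stationary phase, read 10.59, 10.68 and 11.07 against 13.14, 12.91 and 12.86 (difference 2.18). SSB2 (0.75), an Hsp70 at the ribosome, and CUR1 (0.72), a paralog of BTN2, were higher. BTN2, APJ1 (-1.97), an Hsp40 chaperone, and HSP31 (-1.40), a stress chaperone with glyoxalase activity, were lower.

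The kinases and G proteins of nutrient signalling act upstream of these programmes. Of 35 genes of TOR, Sch9 and Ras-PKA signalling 14 were higher (40.0%, against 29.5% of all genes) and 4 lower, with a median of 0.19, which was -0.03 after median centring, where 12 were higher and 12 lower; the deposited values gave 14 and 8. TOR2 read 9.29, 9.29 and 9.56 against 10.98, 10.92 and 10.92 (difference 1.56) and TOR1 9.17, 9.03 and 9.28 against 10.18, 10.18 and 10.24 (difference 1.04); KOG1 (0.68), a subunit of their complex, and NPR2 (0.76), which restrains it, were higher. On the Ras side IRA1 (1.06), which turns Ras off, and CDC25 (1.05), which turns it on, were both higher, as were adenylate cyclase CYR1 (0.80) and the glucose receptor GPR1 (0.62), and RAS2 was lower by -0.38. Besides SCH9, the kinases PKH2 (-0.67) and YPK1 (-0.55) were lower and YPK3 (0.60) and SNF1 (0.64) higher. TPK2 lay at the threshold, with a difference of 0.27 that was -0.03 in the deposited values and at -0.18 with median centring.

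Autophagy had 15 of 40 genes higher (37.5%, against 29.5% of all genes) and 5 lower, with a median of 0.24. Without the 48 h pair 2 were lower, and in the deposited values 8. The receptors ATG19 (1.45) and ATG34 (1.33) and the kinase subunit VPS15 (1.25) were highest. ATG8, the tag of the autophagosome membrane, read 12.60, 12.64 and 12.84 against 12.11, 11.87 and 11.80 (difference -0.76). ATG40 (-0.61) and ATG39 (-0.48), receptors for the endoplasmic reticulum and nucleus, were lower.

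Among antioxidant enzymes 10 of 32 were higher (31.2%, near the 29.5% of all genes) and 5 lower. This balance turned in the deposited values, with 7 higher and 13 lower, and after median centring, with 6 and 15. SOD2, the mitochondrial superoxide dismutase, read 11.63, 11.56 and 11.86 in the wild type and 13.15, 13.13 and 13.13 in the labelled mutant (difference 1.45, adjusted p = 0.000144). The mitochondrial repair enzyme MXR2 (1.23) and thioredoxin reductase TRR2 (1.09) were higher. CCP1, cytochrome c peroxidase of the same organelle, read 12.76, 13.02 and 12.82 against 10.54, 10.79 and 10.74 (difference -2.18), and the peroxisomal catalase CTA1 (-1.08) and the glutaredoxin GRX3 (-1.28) were lower.

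Genes regulated by oxygen had 9 of 22 members lower (40.9%, against 25.6% of all genes) and 3 higher, and 14 and 3 in the deposited values. HEM13 of heme synthesis differed by -1.75. HYP2, the aerobic partner of ANB1, read 12.02, 12.16 and 12.38 against 12.99, 13.08 and 12.98 (difference 0.83), so the eIF5A pair moved in opposite directions; HYP2 lay at 0.09 in the deposited values and at -0.06 with median centring. HAP1, the heme-responsive activator, was higher by 1.17.

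**Figure D3:**
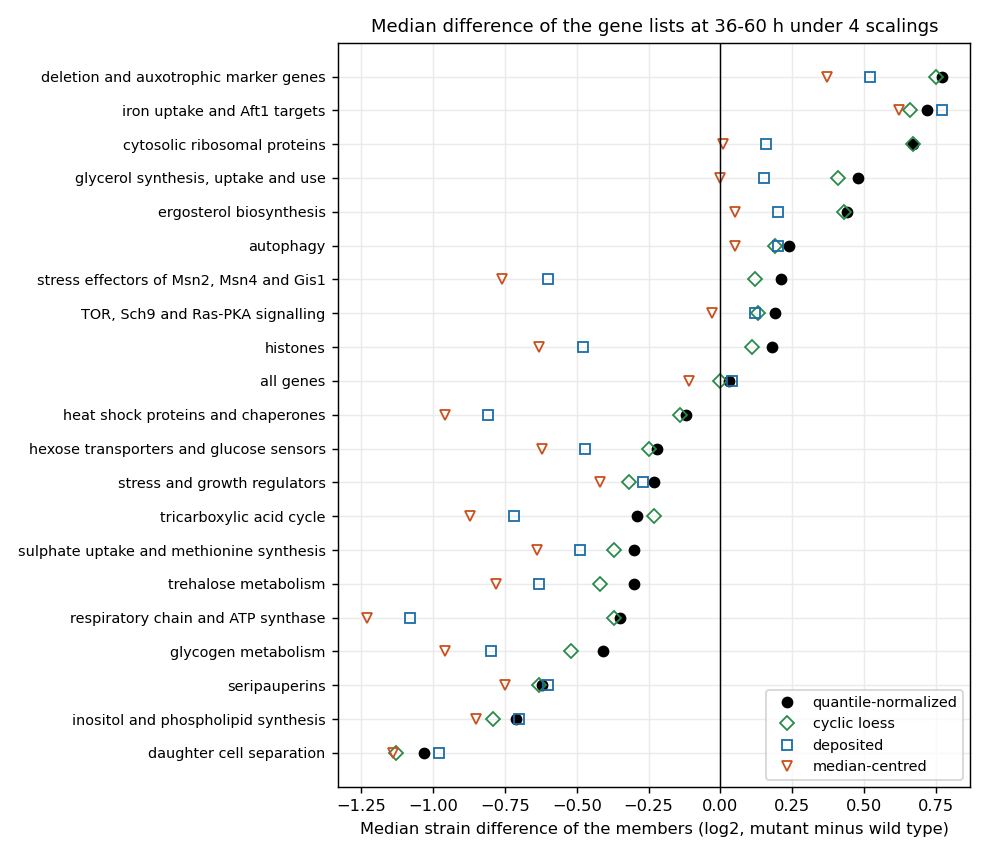
Median strain difference of the members of 20 gene lists and of all genes (log2, labelled mutant minus wild type, x axis) after quantile normalization (filled circles), cyclic loess (diamonds), in the deposited values (squares) and after median centring (triangles). Daughter separation, inositol and phospholipid, and iron genes keep their direction, whereas stress effectors go from 0.21 to -0.60 and histones from 0.18 to -0.48 between quantile-normalized and deposited values.

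Of the deletion and auxotrophic marker genes 5 of 7 were higher (71.4%, against 29.5% of all genes) and none was lower (25.6% of all genes were). In the deposited values 1 was lower and after median centring 2. After URA3 came ADE2 (1.14), LEU2 (1.00), HIS3 (0.77) and LYS2 (0.74), and MET17 (-0.18) and CAN1 (-0.08) did not pass. Wild-type signals differed widely among them, from the 7.63 to 8.03 of URA3 to those of LEU2, at 11.35, 11.40 and 11.53. Mating type genes were described in full because the strains' mating type is not labelled: the alpha genes MF(ALPHA)2 (-2.01), SAG1 (-1.30) and MF(ALPHA)1 (-0.76) were lower and STE3 (-0.18) did not pass. Of the a genes MFA1 (-0.56) was lower, AGA2 (0.50), BAR1 (0.35) and ASG7 (0.28) were higher, all near the low end of the array, and STE2 (0.16), STE6 (0.02) and MFA2 (0.08) did not pass; ASG7 lay at -0.06 in the deposited values and at -0.22 with median centring, and BAR1 at -0.04 after median centring. The pheromone gene MF(ALPHA)1 went in the labelled mutant from 11.77 at 36 h to 10.61 at 60 h.

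Of 10 histone genes 4 were higher (40.0%, against 29.5% of all genes) and 1 lower (25.6% of all genes were), with a median of 0.18. The deposited values gave 2 higher and 5 lower (median -0.48), and median centring 1 and 6 (median -0.63). HTB1, histone H2B, read 11.36, 11.27 and 11.32 against 13.00, 13.09 and 13.03 (difference 1.72), and HHT1 (0.99) and HHO1 (0.55) followed. The centromere histone CSE4 was lower by -0.87.

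Further lists are given by their counts, and the deposited values follow. Of 47 cell wall genes 17 were lower and 6 higher, of 20 endoplasmic reticulum folding genes 10 lower and 2 higher, of 38 nitrogen genes 16 lower and 7 higher, and of 34 meiosis genes 9 lower and 8 higher. In the deposited values the lower and higher counts were 31 and 3, 7 and 4, 18 and 5, and 11 and 6, in the same order. Without the 48 h pair 6 folding genes were lower, and 2 cell wall, 1 folding, 2 nitrogen and 4 meiosis genes were higher. EXG1, a wall glucanase, was 1.23 higher, EUG1, a disulphide isomerase, was at -1.30 and the GABA permease UGA4 at -1.64. POT1, the thiolase of fatty acid oxidation, was 2.06 higher, and of its list 12 of 37 were higher (32.4%) and 9 lower (24.3%). The members of the cell wall list ranged from -3.39 to 1.23 and those of the nitrogen list from -1.64 to 0.77. Meiotic regulators went opposite ways, IME1 at 1.14 and IME2 at -1.56. SIR4 (1.21) and SIR2 (0.60) of silencing were higher, in a list with 6 of 20 higher (30.0%) and 6 lower (30.0%). Without the 48 h pair 1 of that list was higher and 5 were lower.

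Amino acid synthesis had 18 of 67 genes higher (26.9%, below the 29.5% of all genes) and 15 lower, and 9 higher and 28 lower in the deposited values, with GDH3, a glutamate dehydrogenase of stationary phase, at 1.45 and ARG8 at -1.72. The proteasome had 7 of 35 in each direction, shares below those over all genes, and 2 higher and 10 lower in the deposited values. The phosphate regulon had 7 of 26 higher (26.9%) and 8 lower (30.8%). Cyclins and replication had 12 of 35 higher (34.3%) and 8 lower (22.9%). Translation factors had 12 of 33 higher (36.4%) and 8 lower (24.2%). In the same order, the counts of these lists became 6 and 4, 10 and 9, and 7 and 10 in the deposited values. Without the 48 h pair they became 5 and 4, 9 and 5, and 5 and 6. DED1, an RNA helicase of translation initiation, was lower by -1.76, and the G1 cyclins CLN2 and CLN1 by -1.08 and -0.81. Nucleotide synthesis had 11 of 25 higher and 8 lower (6 and 8 in the deposited values), both shares above those over all genes. RNA polymerases I and III had 5 of 22 higher (22.7%, below the 29.5% of all genes) and 2 lower (9.09%, below the 25.6%). The haploid mating pathway had 2 of 16 higher (12.5%, against 29.5%) and 5 lower (31.2%, against 25.6%). Proton pumps had 5 of 22 higher (22.7%, below the 29.5% of all genes) and none lower. For the proton pumps this held on the quantile-normalized scale, since the deposited values gave 3 higher and 8 lower, and median centring 3 and 14. Leaving out the 48 h pair, 2 proton pump genes were higher, and 1 polymerase gene in each direction was called.

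To place the window in the course, the strain difference at 36 to 60 h was set against that at 12, 24 and 84 to 108 h in a single fit of 18 arrays, in which the pairs at 12 and 24 h borrow their spread from the other times. Against 12 h, 1769 genes (32.5%) differed in their strain difference, 972 more positive (17.8% of all genes) and 797 more negative (14.6%) at 36 to 60 h. Of these 1769 genes 1165 had opposite signs in the windows. Selecting genes by their change favours opposite signs, and the share over all genes was not counted. In the deposited values 329 genes were more positive and 1209 more negative. YDL218W went from 0.35 at 12 h to 5.23 (change 4.88, SE 0.27, adjusted p = 3.99e-05), PDC6 from -0.25 to 3.98, GRE1 from -0.62 to 3.65 and TIS11 from -0.88 to 3.41. PIR3, a wall protein, was at -4.22 at 12 h, and at 0.30 it did not pass at 36 to 60 h (change 4.51).

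In the other direction the differences of YNR014W went from 1.26 to -2.38, of TIP1, a wall mannoprotein, from 1.35 to -1.90, of YKL068W-A from 1.04 to -2.09, of MET32 from 0.41 to -2.77 and of YLR012C from 0.01 to -3.33. Of 11 daughter separation genes 8 were more negative than at 12 h (14.6% of all genes were) and 1 more positive. Of 30 iron genes 18 were more positive (17.8% of all genes were) and none more negative. Of 53 stress effectors 32 were more positive and 1 more negative than at 12 h, where their median difference was -0.60.

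Against 24 h, 768 genes (14.1%) differed, 369 more positive (6.77% of all genes) and 399 more negative (7.32%), with 911 and 513 in the deposited values and 359 and 1020 after median centring; without the 48 h pair 342 differed. Among the more positive genes ICL1, isocitrate lyase, went from -3.40 at 24 h to 0.27 (change 3.67, SE 0.18, adjusted p = 0.000122), YAT2, a carnitine acetyltransferase, from -3.86 to -0.61, and SFC1, a carrier of succinate and fumarate, from -2.94 to 0.09. DIP5, an amino acid permease, went from -3.70 to 0.21 and STL1 from -2.04 to 0.87. The signals of ICL1 in the labelled mutant were 13.33, 13.04 and 13.14 at 36 to 60 h, against 13.13, 12.80 and 12.77 in the wild type. More negative than at 24 h were HXT3, from 0.80 to -2.38, HXT4, from 1.66 to -1.07, SRD1, from 1.06 to -1.56, and SDD1 and YOR186W, which were 2.55 and 2.62 at 24 h and did not pass at 36 to 60 h (-0.12 and -0.14). Of 67 amino acid genes 34 were more positive than at 24 h and 1 more negative, and of 11 daughter separation genes 9 were more negative.

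Against 84 to 108 h, 588 genes (10.8%) differed, 331 more positive (6.07% of all genes) and 257 more negative (4.72%) at 36 to 60 h. At an adjusted p under 0.01 a single gene, SUL1, passed; without the 48 h pair limma called no gene (1341 had an unadjusted p under 0.05), and without the 60 h pair 1728 did, and leaving out the 36, 84, 96 or 108 h pair gave 93, 21, 63 and 1. SUL1, a sulphate permease, went from -0.41 at 36 to 60 h to 2.04 late (change -2.45, SE 0.19, adjusted p = 0.00569). The phosphate transporters PHO84 (0.39, late 3.0) and PHO89 (0.02, late 1.94) were set apart from the wild type in the late window, and YNR064C (-0.86, late 0.77) and the putative ammonium transporter ATO2 (-1.68, late -0.08) were also more negative in the early one. MF(ALPHA)1 (-0.76, late -2.59), SIP18 (3.26, late 1.46), CUR1 (0.72, late -0.76) and the transposon genes YER138W-A and YDR261C-D were more positive, the last 2 read by shared probe sets and uncertain.

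**Figure D4:**
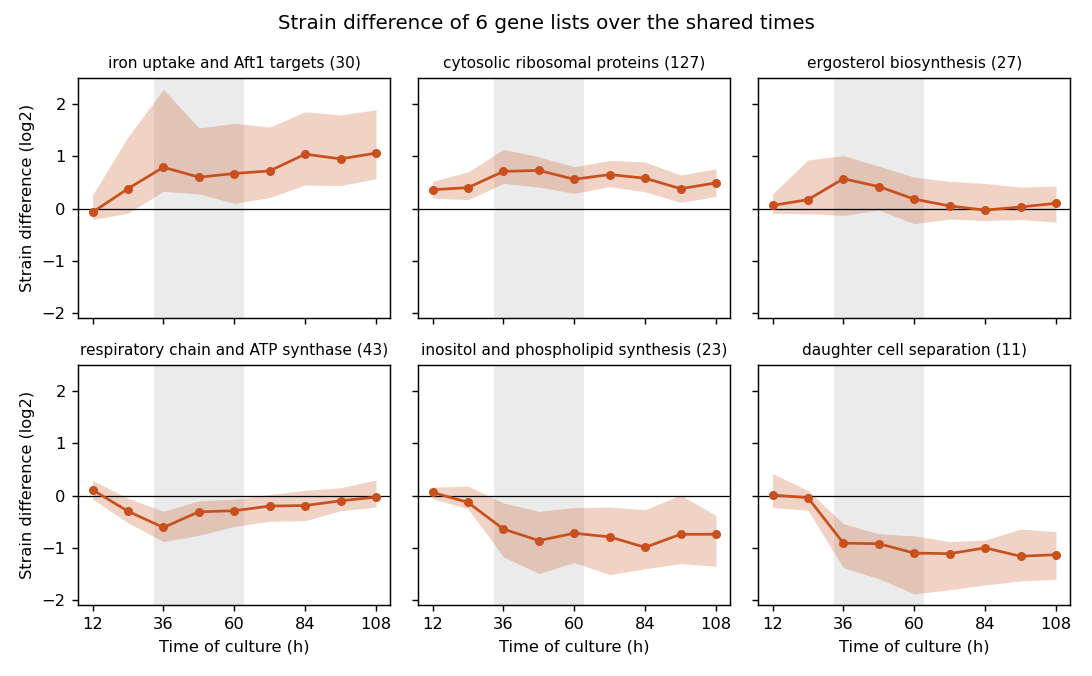
Strain difference (log2, labelled mutant minus wild type, y axis) at the 9 shared times (h, x axis) for 6 gene lists; points are medians over the members (number in brackets), bands run from the lower to the upper quartile, and the grey area marks 36 to 60 h. The medians of daughter separation genes go from 0.01 at 12 h and -0.04 at 24 h to -0.91 at 36 h, and those of ergosterol genes fall from 0.56 at 36 h to 0.18 at 60 h.

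The lists differed in when they parted. The median of the iron genes was -0.07 at 12 h, 0.38 at 24 h, 0.72 at 36 to 60 h and 1.01 at 84 to 108 h. That of the daughter separation genes was 0.01 and -0.04 at 12 and 24 h, -1.03 at 36 to 60 h and -1.08 late, and that of the inositol and phospholipid genes 0.07, -0.13, -0.71 and -0.74. Ergosterol genes stood at 0.07, 0.17, 0.44 and 0.06, so their median was furthest from the wild type in the window. There 8 of 27 were more positive than late (6.07% of all genes were) and none more negative. Respiratory genes stood at 0.11, -0.30, -0.35 and -0.08. Of these 43 genes 10 were more negative at 36 to 60 h than late (4.72% of all genes were) and 2 more positive. The contrast with the late window depended on single hours, and without the 48 h pair limma called no gene in it. In the deposited values it called 42 genes more positive and 261 more negative.

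**Figure D5:**
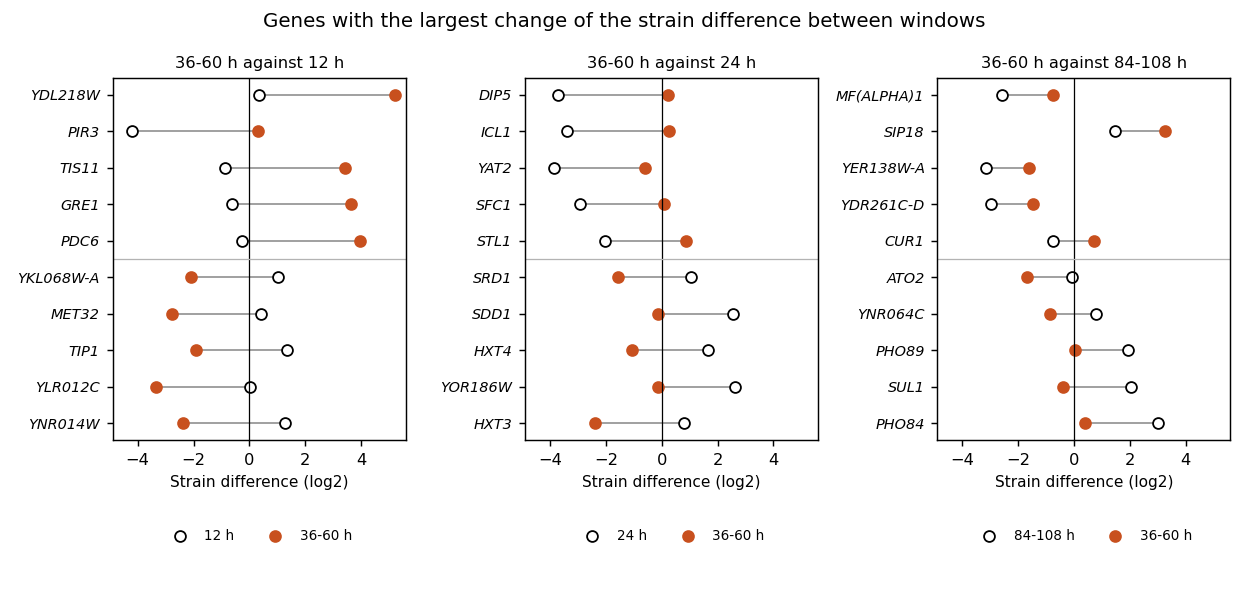
Strain difference (log2, x axis) of the genes with the largest change between windows, 5 in each direction (y axis), at 36 to 60 h (orange) and at 12 h, 24 h or 84 to 108 h (open circles, from left to right panel). Genes in the upper part of each panel were more positive at 36 to 60 h, such as ICL1, which went from -3.40 at 24 h to 0.27; those in the lower part were more negative, such as HXT3, from 0.80 to -2.38.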

How the data were processed

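The authors deposited 1 value per probe set and array on a log2 scale, per the shape of the values (5.76 to 15.02). The sources used here do not say how the scans were summarized and normalized, and the deposited log2 column medians of the 6 arrays ran from 9.54 to 9.98. Arrays report no counts, so their number limits the precision. Of 5814 probe sets 51 were controls and 265 had no gene in the platform annotation. Gene symbols were updated through RefSeq locus tags in 12 cases. For 47 genes with several probe sets the brightest on average stood for the gene, giving 5449 genes, 115 of them read by a probe set that matches several genes. All 19 columns were quantile-normalized over these genes. limma 3.58.1 in R 4.3.3 fitted the strain difference at 36, 48 and 60 h with the hour as a block (residual df 2, prior df 4.92), and a strain effect in each of 5 windows over 18 arrays (residual df 4, prior df 4.22). p-values were adjusted by Benjamini-Hochberg over all genes, with a threshold of 0.05. Replicate numbers in the design stand for the hour, which is how the labels pair the strains. For a single gene the smallest exact two-sided permutation p that 3 pairs allow is 0.25.

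Named genes were the 14 largest differences in each direction among called genes whose strains did not overlap, the 5 largest changes in each direction between windows, and the most changed members of each list, with further members of the lists described in full. The members and the 41 gene lists were chosen with earlier results of these data known. Scalings, pairing, the variance prior, a filter on dim genes, the choice of probe set, the threshold and single hours were varied. Promoter sequences were not analysed here.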

Additional observations from a re-analysis of the deposited data

Results flagged for a closer look

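The strain difference of 30 genes at 36 to 60 h was tested against that of the same genes in another window, and these were the largest changes past the threshold (limma, adjusted over 5449 genes). Against 12 h, the difference became more positive for YDL218W (4.88), PIR3 (4.51), TIS11 (4.29), GRE1 (4.27) and PDC6 (4.23), as changes on the log2 scale. It became more negative for YNR014W (-3.63), YLR012C (-3.34), TIP1 (-3.25), MET32 (-3.17) and YKL068W-A (-3.13). Against 24 h, it was more positive for DIP5 (3.91), ICL1 (3.67), YAT2 (3.25), SFC1 (3.03) and STL1 (2.91), and more negative for HXT3 (-3.18), YOR186W (-2.76), HXT4 (-2.73), SDD1 (-2.67) and SRD1 (-2.62). Against 84 to 108 h, it was more positive at 36 to 60 h for MF(ALPHA)1 (1.84), SIP18 (1.81), YER138W-A (1.53), YDR261C-D (1.50) and CUR1 (1.48), and more negative for PHO84 (-2.60), SUL1 (-2.45), PHO89 (-1.92), YNR064C (-1.62) and ATO2 (-1.60). YER138W-A and YDR261C-D are read by probe sets that match several genes.

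The array also carries 3 control probe sets for URA3, which entered no comparison. Their deposited log2 signals were higher in the labelled mutant than in the wild type by 1.64 for the 3' set, 1.77 for the middle set and 2.49 for the 5' set, as means over 36, 48 and 60 h, without a test.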

How the results depend on the processing

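Called genes at 36 to 60 h numbered 3003, and between 2309 (dim genes left out) and 3444 under the other scalings, pairings, samples, prior, filter and probe set choice. The fit with 2309 calls left out the dimmest 25% of genes, so it tested fewer genes. Of its calls 2307 were also among the 3003, in the same direction. Of the 3003, 2151 were called in the same direction in the deposited values and 13 in the opposite one, and 2399 and 35 after median centring. Leaving out 1 hour gave 1863 (without 48 h) to 3064, and requiring a 2-fold difference 536. Without the replicate block, that is with the pairing by hour dropped, 2827 were called, and 584, 1500 and 717 against 84 to 108, 12 and 24 h. Against 84 to 108 h the count of 588 became 303 in the deposited values (42 more positive, 261 more negative), 1 at an adjusted p under 0.01, and 0 to 1728 when 1 hour was left out. Against 12 h, 823 of 1769 passed at 0.01, and leaving out an hour gave 1203 to 2219. Against 24 h the count of 768 became 1424 in the deposited values, 1379 after median centring, 228 at 0.01 and 342 to 1191 without an hour. The cause of these shifts was not tested.

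Among the 20 lists drawn by scaling and the named genes, the direction turned in the deposited values for the medians of the stress effectors (-0.60) and histones (-0.48) and for ASG7 (-0.06), CYS4 (-0.07), SPG4 (-0.02) and TPK2 (-0.03). After median centring it turned, among the same lists and genes, for the stress effectors (-0.76), TOR, Sch9 and Ras-PKA signalling (-0.03) and histones (-0.63), and for AKR1 (-0.06), ASG7 (-0.22), BAR1 (-0.04), COT1 (-0.14), CYS4 (-0.22), FTH1 (-0.14), GUT2 (-0.01), HYP2 (-0.06), SPG4 (-0.17) and TPK2 (-0.18). Each strain and hour is 1 array, so the limits on precision come from the number of arrays. Among the other lists described, the deposited values turned the medians of glycolysis (-0.69), gluconeogenesis (-0.66), proton pumps and the proteasome (both -0.27), amino acid synthesis (-0.26), antioxidants (-0.20) and the phosphate regulon (-0.06). Median centring turned these too, and nucleotide synthesis (-0.10), mating type genes (-0.12) and peroxisomal genes (-0.04).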
